A study of Mus musculus with 8 samples.

Results

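The DNA methylation and imprint maintenance genes described here are the 3 DNA methyltransferases Dnmt1, Dnmt3a and Dnmt3b, the cofactor Dnmt3l, the oxidases Tet1, Tet2 and Tet3, the replication-coupled factor Uhrf1, and the imprint factors Trim28 and Zfp57. They were chosen by function, and all 10 were among the 26225 annotated genes of the mouse genome build mm9 that were counted. The measure was trimethylation of histone H3 at lysine 4 (H3K4me3), taken as the number of ChIP-Seq tags within 1 kb of a gene's transcription start.

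Dnmt1 copies methylation onto the new DNA strand after replication and is brought to hemimethylated CpG by Uhrf1. Dnmt3a and Dnmt3b set new methylation, helped in early embryos, germ cells and mESCs by Dnmt3l, which has no catalytic activity of its own. The Tet enzymes oxidise methylcytosine on the path to its removal, and Zfp57 binds methylated imprinted regions and brings in Trim28, a scaffold for repressive complexes. H3K4me3 marks the promoters of active and poised genes, and menin is a subunit of the MLL complexes that place it at a part of them.

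The line TC-1 gave the wild-type (wt) mESCs and the line 3.2N, in which Men1 is knocked out, the menin-null mESCs, and both are of the 129S6/SvEvTac background. They were compared undifferentiated and as pancreatic islet-like endocrine cells (PILECs) differentiated from them in culture. The mESCs had been grown on irradiated feeder cells that were then removed. Of the 8 libraries, 4 were H3K4me3 ChIP and 4 were input, 1 of each per genotype and stage, and each genotype was 1 cell line, so no comparison has a replicate check. A ratio below therefore compares 2 libraries, and its 95% interval, the exact conditional binomial (Clopper-Pearson) interval, covers counting error only.

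The H3K4me3 libraries held between 2432377 and 18773635 tags and the inputs between 3744616 and 19016697, with the mESC libraries at the low end of both ranges. Counts were divided by all tags of the library and expressed as reads per 1000000 (RPM). As a check of the genotype labels, over exons 3 to 8 of Men1 the inputs held 17 tags in wt mESCs and 22 in wt PILECs, and 0 in both menin-null inputs, where a count of 0 allows up to 3 tags. The H3K4me3 libraries held 24 tags there in wt PILECs and 0 in the other 3, wt mESCs included, so this check says nothing of the genotype of the mESC H3K4me3 libraries. The menin-null mESC H3K4me3 library stood apart, with 51.4% of its tags near starts against 40.1 to 43.5% in the other 3 and 4.17% duplicate tags against 11.4 to 11.5%. The summed H3K4me3 of 8 mESC markers was 321.5 RPM in wt and 410.6 RPM in menin-null mESCs against 63.6 and 65.1 RPM in the PILECs. Of 8 islet markers, the hormone genes Ins1, Ins2, Gcg and Iapp lay between 0.21 and 1.24 RPM in both PILEC libraries. The median input was 0.95 and 0.94 RPM there. The highest value of the list, at a transcription factor gene, was 7.24 RPM in wt and 8.48 RPM in menin-null PILECs. The list summed to 20.8 and 24.2 RPM in the PILECs, with 1 and 2 of its genes above the median of all genes. In wt and menin-null mESCs it summed to 32.1 and 28.1 RPM. The summed input of the list was 9.18 and 11.5 RPM in those mESCs and 5.52 and 7.28 RPM in the PILECs. The islet label of the PILECs, which the study based on transcripts and on protein staining, was not seen at these hormone promoters. In mixed cultures fewer cells with a mark and less of the mark per cell cannot be told apart.

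The libraries also differed in base composition. Over genes whose 2-kb window held 70 to 75% G and C, the mean input was 3.79 RPM in wt and 2.97 RPM in menin-null mESCs but 0.60 and 0.68 RPM in the PILECs, whereas for windows of 45 to 50% it was 1.44 and 1.37 RPM against 0.99 and 0.99 RPM. The median H3K4me3 ratio of menin-null PILECs over menin-null mESCs moved with GC in the same direction, from -0.05 to -1.18 on the log2 scale between those classes. The GC content of each gene is therefore given beside its ratios. A ratio called relative to GC is the ratio minus the median of the 200 genes nearest in GC, an alternative chosen after seeing the data.

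Most of these promoters carried a strong mark. In wt mESCs the 10 genes lay between 5.34 and 62.9 RPM with a median of 43.6 RPM, against a median of 9.46 RPM over all genes, and 8 of the 10 were above that median. In menin-null mESCs the median of the 10 was 57.7 RPM, and the PILEC medians were 34.9 RPM for wt and 31.8 RPM for menin-null cells, with 9 of 10 above the median of all genes in each. Input tags in the same windows stayed between 0.21 and 4.71 RPM.

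With Tet1 read at its most marked annotated start, an internal one, the order in wt mESCs ran from Trim28 and Dnmt3b through Dnmt3a, Tet2, Uhrf1 and Dnmt1 to Zfp57, and no neighbours in that run differed beyond counting error. A gap then separated Zfp57 from Dnmt3l, Tet3 and Tet1, whose neighbours again did not differ. In wt PILECs the order began with Trim28 and Tet2, which did not differ from each other, followed by Dnmt1, Zfp57 and Tet3, then by Uhrf1, Dnmt3b and Dnmt3a, and ended with Tet1 and Dnmt3l, each lower than the gene before it beyond counting error. At its RefSeq start Tet1 had 38.6 RPM in wt mESCs and 28.4 RPM in wt PILECs, which puts it after Zfp57 in the first order and next to Dnmt3a in the second.

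**Figure D1:**
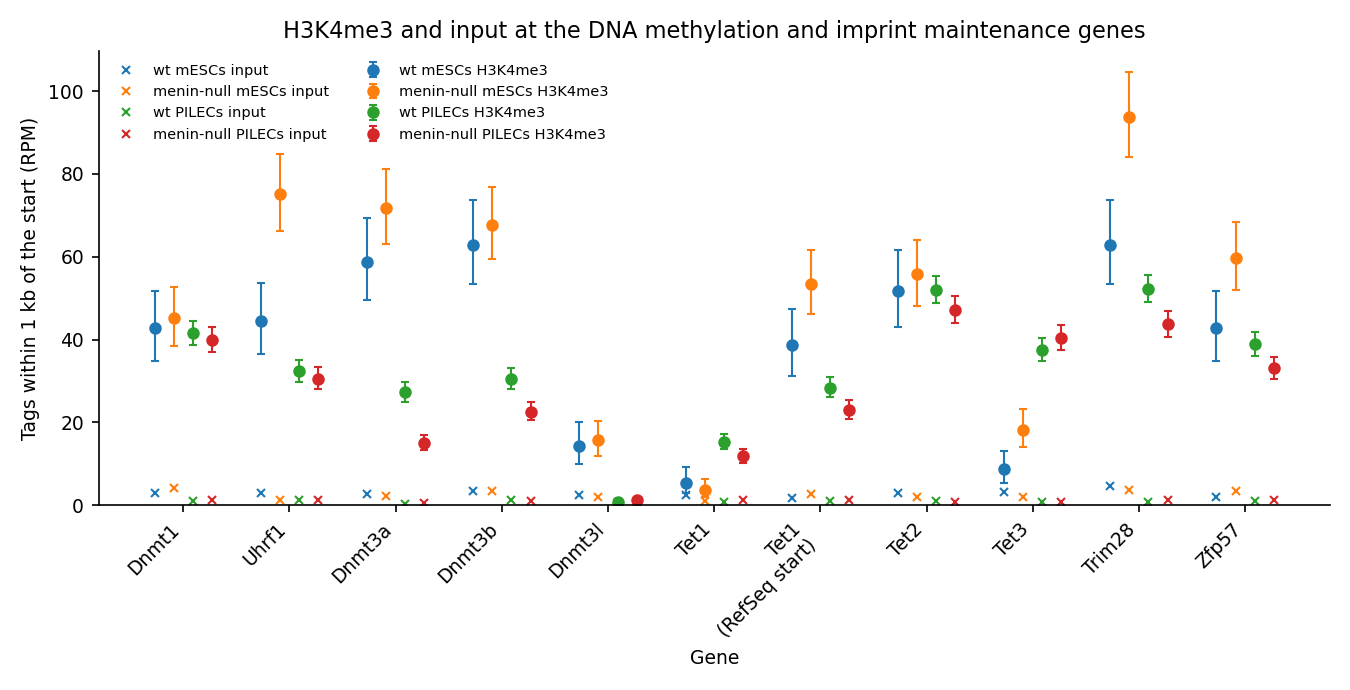
H3K4me3 (filled points, with exact Poisson 95% intervals) and input (crosses) within 1 kb of the start of each gene, in RPM on a linear axis, for the 4 kinds of cells, with Tet1 shown at its annotated and at its RefSeq start. Dnmt3l sat at 14.4 and 15.6 RPM in mESCs and at 0.80 and 1.19 RPM in PILECs, and Tet3 ran the other way, from 8.63 and 18.2 RPM to 37.4 and 40.5 RPM.

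Dnmt1 (chr9:20711650-20757317, minus strand) held 42.8 RPM in wt and 45.2 RPM in menin-null mESCs, with 41.5 and 40.0 RPM in their PILECs. Its 4 levels lay close together, and the intervals of all 4 ratios included 0, from -0.18 (95% interval -0.43 to 0.08) for PILECs over mESCs in menin-null cells to 0.08 (-0.29 to 0.45) for menin-null over wt mESCs. Relative to GC (56.1%), the first of these was 0.29 (0.04 to 0.54). Relative to the median of all genes, the intervals of all 4 ratios of Dnmt1 included 0. Divided by the input ratio within 50 kb, PILECs over mESCs became 0.69 in wt and 0.74 in menin-null cells. The medians of all genes on that scale were 0.30 in wt and -0.01 in menin-null cells. The level of Dnmt1 was thus not flat on that scale. Uhrf1 (chr17:56442744-56462909, plus strand) held 44.4, 75.1, 32.3 and 30.6 RPM in the same order, so the menin-null mESC library stood above the other 3. Its log2 ratio of menin-null over wt was 0.76 (0.43 to 1.09) in mESCs, where the median of all genes was 0.23, and -0.08 (-0.25 to 0.09) in PILECs. Between the stages Uhrf1 was lower in PILECs by a log2 ratio of -0.46 (-0.76 to -0.15) in wt and -1.29 (-1.51 to -1.08) in menin-null cells. Divided by the input ratio within 50 kb, the wt value turned to 0.45 and the menin-null value was -0.33. The medians of all genes were 0.30 and -0.01 there. Its window is 59.4% G and C, and relative to GC the mESC genotype ratio was 0.47 (0.14 to 0.81), the wt stage ratio was -0.27 (-0.57 to 0.04) and the menin-null stage ratio -0.83 (-1.05 to -0.61).

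A second RefSeq start of Dnmt1, 7015 bp upstream of the annotated one, had 1 and 2 tags in the mESC libraries and 7 in each PILEC library, all at or under 0.57 RPM, so the mark of Dnmt1 lay at the annotated start.

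On the scale of all tags, the de novo enzymes stood at least 2-fold lower at their most marked starts in PILECs of both genotypes. Dnmt3a (chr12:3806007-3914443, plus strand) held 58.8 RPM in wt and 71.7 RPM in menin-null mESCs, with 27.3 and 15.0 RPM in their PILECs at its upstream start. Both mESC libraries were above both PILEC libraries, and the menin-null PILEC library was the lowest. The log2 ratio of PILECs over mESCs was -1.11 (-1.38 to -0.83) in wt and -2.25 (-2.51 to -2.0) in menin-null cells. Dnmt3b (chr2:153475186-153513466, plus strand) held 62.9, 67.7, 30.5 and 22.6 RPM, with the same split between stages and ratios of -1.04 (-1.30 to -0.78) and -1.58 (-1.82 to -1.34). The start of 7530422B04Rik on the opposite strand lies 669 bp from that of Dnmt3b, and the counts of the window cannot be divided between them.

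These 2 ratios have to be read with the base composition. The Dnmt3a window is 78.0% G and C with 268 CpG, above the count of 99.958% of all promoters, and its input was 2.82 and 2.14 RPM in the mESCs but 0.21 and 0.44 RPM in the PILECs. Relative to GC, the Dnmt3a ratio of PILECs over mESCs was -0.59 (-0.86 to -0.31) in wt and -1.12 (-1.37 to -0.86) in menin-null cells. The 200 nearest genes, Dnmt3a itself among them, reach down to 68.7% G and C. The 6 genes at 75% or more, which also include Dnmt3a, had medians of -0.95 and -1.78. Dnmt3b, at 62.9%, had ratios relative to GC of -0.83 (-1.09 to -0.57) and -1.05 (-1.29 to -0.81). Divided by the input ratio within 50 kb, the wt ratios were -0.43 for Dnmt3a and -0.48 for Dnmt3b, under 2-fold. The wt median of all genes on that scale was 0.30. The part of base composition in these ratios was not tested further.

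Dnmt3a was also the member with the lowest genotype ratio in PILECs. Menin-null over wt was -0.86 (-1.08 to -0.64), a 1.82-fold lower level, where the median of all genes was -0.07 and 3.23% of genes had a lower ratio. In mESCs the same ratio was 0.29 (-0.02 to 0.59). Relative to GC the PILEC ratio was -0.63 (-0.85 to -0.42), but the 6 genes at 75% G and C or more, Dnmt3a among them, had a median of -0.53. The input ratio within 50 kb was -0.03 (-0.16 to 0.10). The size of the ratio depended on the window, with -1.90 within 500 bp of the start and -0.40 within 2 kb. The gap was not even along the promoter. From the start to 1 kb downstream, where G and C make up 79.8% and the wt PILEC input held 0 tags, the ratio was -0.91 (-1.20 to -0.63), but from 1 to 2 kb downstream, at 62.7%, menin-null PILECs were higher, with 202 tags against 147 and a ratio of 0.54 (0.23 to 0.86).

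Dnmt3a has a separate internal start 84584 bp downstream of the first, which begins the short form of the enzyme. It held 26.3 RPM in wt and 28.4 RPM in menin-null mESCs, with 14.3 and 7.41 RPM in their PILECs, so its libraries fell in the same order as at the upstream start. The menin-null over wt ratio there was -0.95 (-1.26 to -0.65) in PILECs and 0.11 (-0.36 to 0.59) in mESCs. This window is 56.8% G and C, for which the nearest 200 genes had a median of -0.02 in PILECs, and the ratio relative to GC was -0.93 (-1.24 to -0.62). Input tags in the segment up to 1 kb downstream numbered 15 in wt and 17 in menin-null PILECs. Most H3K4me3 tags lay downstream of the start, with 219 tags within 1 kb downstream and 50 within 1 kb upstream in wt PILECs. The RefSeq start of this group is at 3891744, and its first annotated start is at 3891728. The 250 bases of mm9 before that first annotated start (chr12:3891478-3891727, plus strand) are printed as the second promoter of the gene with a lower level in menin-null PILECs. They hold 16 CpG, shown in capitals, and are themselves 73.6% G and C.
Dnmt3a internal start: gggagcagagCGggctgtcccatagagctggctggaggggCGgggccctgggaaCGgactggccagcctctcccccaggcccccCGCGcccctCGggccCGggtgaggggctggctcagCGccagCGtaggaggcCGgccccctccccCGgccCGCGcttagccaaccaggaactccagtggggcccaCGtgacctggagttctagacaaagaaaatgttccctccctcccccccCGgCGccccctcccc

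Dnmt3l was marked in mESCs and at the level of the input in PILECs. It lies at chr10:77504692-77526367 on the plus strand, and its marked start had 35 tags or 14.4 RPM in wt mESCs and 55 tags or 15.6 RPM in menin-null mESCs. The PILECs had 15 tags or 0.80 RPM in wt and 21 tags or 1.19 RPM in menin-null cells, with input at 0.89 and 0.99 RPM, so no mark above input was detectable there. The log2 ratios of PILECs over mESCs were -4.17 (-5.15 to -3.26) in wt and -3.72 (-4.52 to -2.97) in menin-null cells, sizes that the background level of the PILEC tags limits. Relative to GC (53.9%) they were -4.17 and -3.35. Both mESC libraries were above both PILEC libraries, and the genotype ratios, 0.12 (-0.52 to 0.77) in mESCs and 0.57 (-0.45 to 1.63) in PILECs, had intervals that included 0. The first start of Dnmt3l, 7672 bp upstream and also listed by RefSeq, had at most 2.88 RPM in any library. The Dnmt3l window has 47 CpG, fewer than the median of 59 over all promoters, and the 250 bases before the 5' start of the marked group (chr10:77512337-77512586, plus strand), shown for this stage-bound promoter, hold 4 CpG, in capitals.
Dnmt3l: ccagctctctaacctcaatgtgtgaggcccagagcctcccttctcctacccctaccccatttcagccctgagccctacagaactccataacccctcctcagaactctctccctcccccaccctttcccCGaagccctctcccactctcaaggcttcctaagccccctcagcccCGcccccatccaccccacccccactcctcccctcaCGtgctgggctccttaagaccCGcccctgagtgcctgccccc

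**Figure D2:**
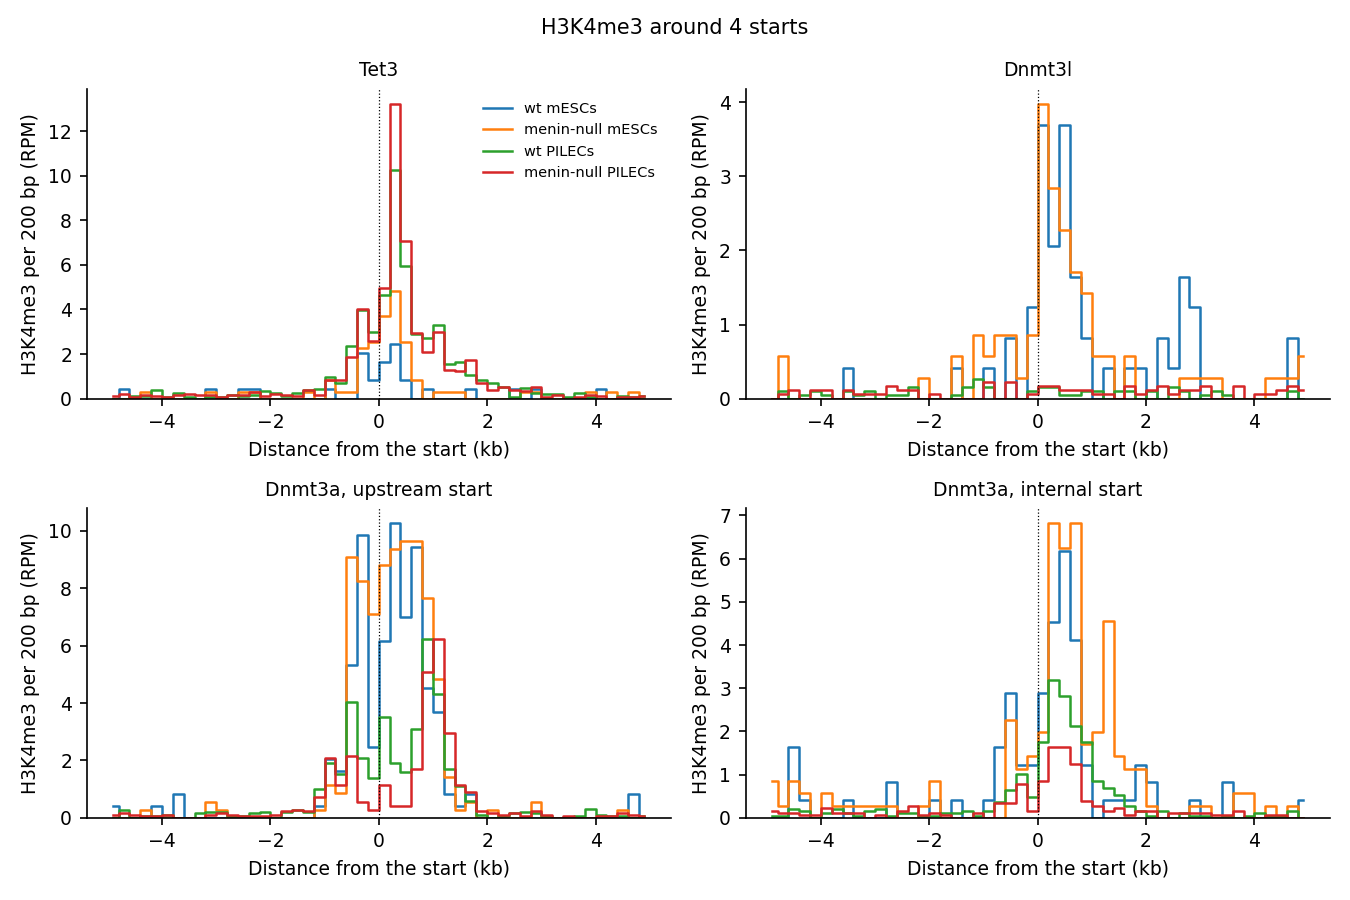
H3K4me3 in windows of 200 bp, in RPM, against the distance in kb from the start in the direction of transcription, for Tet3, Dnmt3l and both starts of Dnmt3a in the 4 kinds of cells, each panel with its own axis. Both PILEC libraries were near 0 at Dnmt3l and above the mESC libraries at Tet3. At the upstream start of Dnmt3a the menin-null PILEC line was below the wt PILEC line within 1 kb of the start and above it from 1 to 2 kb downstream.

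The 3 Tet genes had 3 different patterns. Tet2 (chr3:133126643-133207354, minus strand) held 51.8 RPM in wt and 55.7 RPM in menin-null mESCs, with 51.9 and 47.1 RPM in their PILECs, and the ratio of the stages was 0.00 (-0.27 to 0.28) in wt and -0.24 (-0.47 to -0.01) in menin-null cells. The 4 levels lay close together, and the median of all genes for the second of these ratios was -0.33. Relative to GC (59.5%) the intervals of all 4 ratios of Tet2 included 0.

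Tet3 (chr6:83312367-83391672, minus strand) held 8.63 RPM (21 tags) in wt and 18.2 RPM (64 tags) in menin-null mESCs, with 37.4 and 40.5 RPM in their PILECs. All 4 libraries stood above their inputs of 0.68 to 3.30 RPM, and both PILEC libraries were above both mESC libraries. PILECs over mESCs gave log2 ratios of 2.12 (1.49 to 2.82), 4.34-fold, in wt and 1.15 (0.78 to 1.55), 2.23-fold, in menin-null cells, and relative to GC (58.7%) 2.24 and 1.58. With genotype, menin-null mESCs were higher by 1.08 (0.35 to 1.86), and the PILEC ratio was 0.11 (-0.04 to 0.27). The mESC ratio rests on the 21 tags of the wt library. It was under 2-fold when tags at one position were counted once, when libraries were scaled to tags near starts, when ratios were centred on the median of all genes, and relative to GC, where it was 0.80 (0.07 to 1.59). The lincRNA B230319C09Rik starts 80 bp away on the opposite strand, so the window is shared. The 250 bases before the RefSeq start of Tet3 (chr6:83391673-83391922, minus strand), printed for this shared promoter, hold 17 CpG, in capitals, and overlap annotated exons of that lincRNA.
Tet3: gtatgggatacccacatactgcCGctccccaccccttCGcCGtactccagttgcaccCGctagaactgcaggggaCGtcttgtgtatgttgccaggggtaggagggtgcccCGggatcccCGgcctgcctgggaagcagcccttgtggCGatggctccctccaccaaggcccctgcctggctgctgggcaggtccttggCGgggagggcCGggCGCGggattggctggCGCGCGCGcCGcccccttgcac

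Tet1 (chr10:62267318-62361866, minus strand) depended on which start was read. By the rule used for every gene, its annotated start with the most H3K4me3 was an internal one at 62328052 (46.2% G and C), which held 5.34 RPM in wt and 3.70 RPM in menin-null mESCs, with 15.3 and 11.8 RPM in their PILECs. The mESC values rest on 13 tags each, with 10 and 4 tags in the inputs, and the PILECs were higher by log2 ratios of 1.52 (0.72 to 2.44) in wt and 1.68 (0.87 to 2.61) in menin-null cells. The strongest mark of the gene lay elsewhere. It lay at and downstream of the RefSeq start of Tet1, which was placed on mm9 at 62350072 by an exact match of its promoter sequence and lies 7310 bp from the nearest annotated start. That start held 38.6 RPM in wt and 53.5 RPM in menin-null mESCs, with 28.4 and 23.0 RPM in their PILECs.

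There the direction between the stages was opposite to that at the internal start. PILECs over mESCs was -0.44 (-0.76 to -0.11) in wt and -1.22 (-1.47 to -0.96) in menin-null cells. On the scale of all tags, the sign of the stage ratio of Tet1 was thus set by the choice of start. The ratios at the RefSeq start were not divided by an input ratio. Within 50 kb of the internal start the input ratio of PILECs over mESCs was -0.40 in wt and -0.49 in menin-null cells. Relative to GC (53.4%) these ratios were -0.49 (-0.81 to -0.16) and -0.91 (-1.16 to -0.65). For menin-null over wt, mESCs gave 0.47 (0.10 to 0.84), where the median of all genes was 0.23. Relative to GC this mESC ratio was 0.23 (-0.14 to 0.60), an interval that included 0. PILECs gave -0.30 (-0.49 to -0.11). At the internal start the PILEC ratio was -0.37 (-0.64 to -0.11), on the same side of 0. The 2 stretches are printed together because the stages differ in opposite directions at them. They are the 250 bases before the RefSeq start (chr10:62350073-62350322, minus strand, 15 CpG) and before the internal start (chr10:62328053-62328302, minus strand, 6 CpG), with CpG in capitals.
Tet1 upstream start: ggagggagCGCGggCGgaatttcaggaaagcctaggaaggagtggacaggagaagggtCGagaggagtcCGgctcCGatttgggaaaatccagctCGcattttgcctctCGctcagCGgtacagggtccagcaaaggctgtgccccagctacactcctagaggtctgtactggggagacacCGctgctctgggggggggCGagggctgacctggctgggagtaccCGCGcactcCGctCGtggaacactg
Tet1 internal start: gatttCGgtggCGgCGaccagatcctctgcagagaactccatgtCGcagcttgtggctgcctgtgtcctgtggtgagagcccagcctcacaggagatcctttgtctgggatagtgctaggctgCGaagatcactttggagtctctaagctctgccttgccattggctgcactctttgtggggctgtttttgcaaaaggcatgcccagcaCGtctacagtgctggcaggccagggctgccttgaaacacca

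Tet1 was also marked in mESCs away from its starts. Upstream of the RefSeq start, in the intron after the first annotated exon of the transcript that reaches furthest upstream, the 3 bins of 1 kb from 62353318 to 62356317 held 8.22, 9.46 and 6.17 RPM in wt mESCs and 10.5, 10.5 and 9.95 RPM in menin-null mESCs. The wt PILECs held 0.32, 0.16 and 0.27 RPM and the menin-null PILECs 0.34, 0.28 and 0.34 RPM, close to their inputs. The log2 ratio of wt PILECs over wt mESCs was between -5.89 and -4.53 over these bins, on 15 to 23 tags in wt mESCs. No annotated start lies within 2 kb of these bins, which were picked by their values.

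**Figure D3:**
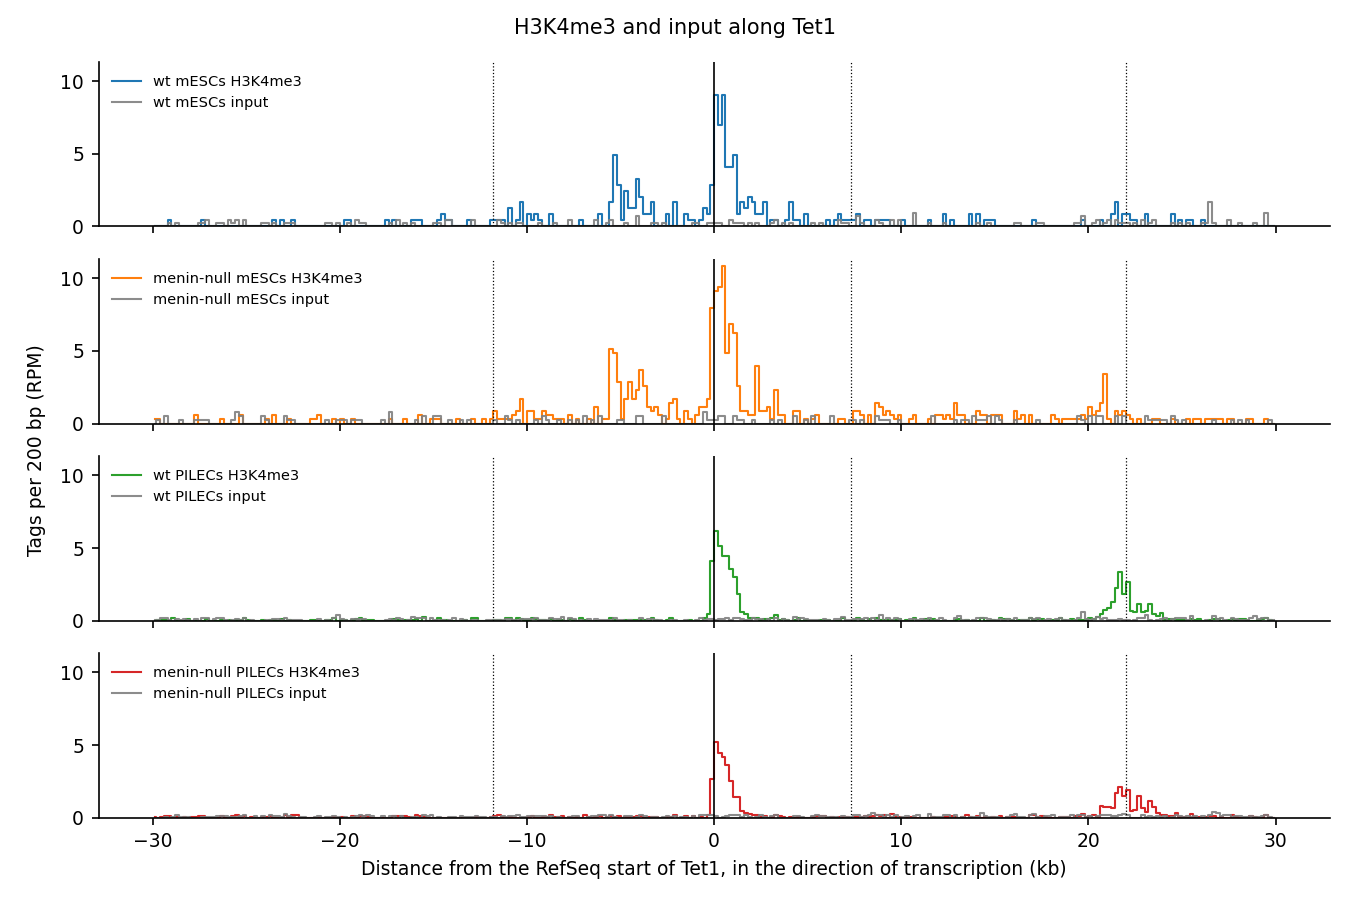
H3K4me3 (coloured) and input (gray) along Tet1 in windows of 200 bp, in RPM, against the distance in kb from the RefSeq start (solid line at 0), with annotated starts as dotted lines and 1 panel for each kind of cells on a common axis. All 4 H3K4me3 libraries had their highest peak at or within 1 kb downstream of the RefSeq start. The stretch upstream of it appeared in the mESC panels, and the peak about 22 kb downstream, at 15.3 and 11.8 RPM within 1 kb, in the PILEC panels.

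Both imprint factors were high in all 4 libraries. Trim28 (chr7:13609501-13616384, plus strand) held 62.9 RPM in wt and 93.8 RPM in menin-null mESCs, with 52.2 and 43.7 RPM in their PILECs. The menin-null mESC level exceeded that of 98.4% of all genes in its library. Zfp57 (chr17:37138108-37147580, plus strand) held 42.8, 59.7, 38.8 and 33.0 RPM. Its levels took the same order as those of Trim28, menin-null mESCs highest and menin-null PILECs lowest. Menin-null over wt was 0.58 (0.30 to 0.86) for Trim28 and 0.48 (0.14 to 0.84) for Zfp57 in mESCs, and -0.26 (-0.39 to -0.12) and -0.23 (-0.39 to -0.07) in PILECs. Relative to GC the intervals of all 4 ratios included 0, with 0.26 (-0.02 to 0.54) and 0.29 (-0.06 to 0.64) in mESCs. PILECs over mESCs was -0.27 (-0.52 to -0.01) and -0.14 (-0.44 to 0.17) in wt and -1.10 (-1.29 to -0.91) and -0.85 (-1.08 to -0.62) in menin-null cells. Divided by the input ratio within 50 kb, the wt values turned to 0.54 and 0.52, where the median of all genes was 0.30. The menin-null values were -0.44 for Trim28 and -0.16 for Zfp57, where that median was -0.01. The windows of Trim28 and Zfp57 are 64.5% and 50.9% G and C, and relative to GC the menin-null stage ratios were -0.31 (-0.50 to -0.12) and -0.65 (-0.88 to -0.42).

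Trim28 also differed between the stages inside the gene. A separate group of starts 3465 bp downstream held 11.1 RPM in wt and 15.4 RPM in menin-null mESCs but 1.23 and 1.64 RPM in the PILECs, whose inputs were 0.95 and 1.60 RPM there. The log2 ratio of PILECs over mESCs was -3.18 (-4.05 to -2.32) in wt and -3.23 (-3.93 to -2.55) in menin-null cells, against -0.27 and -1.10 at the first start. The stretch of windows with at least 1 RPM per 200 bp around the first start of Trim28 was 4400 and 5400 bp wide in mESCs and 3000 and 2800 bp in PILECs. With all libraries thinned to the depth of the smallest the widths were 4400, 5400, 3000 and 3000 bp.

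Other widths changed with the stage too. The Dnmt3b stretch was 2600 bp in both mESC libraries and 1400 and 1200 bp in wt and menin-null PILECs. After thinning it was 2600, 2600, 1400 and 1400 bp. At 2 RPM per window it was 1800 and 1200 bp in wt and menin-null mESCs and 1000 and 600 bp in their PILECs. Uhrf1 had 2400 and 2600 bp against 1400 and 1400 bp, and 2400, 2200, 1600 and 1400 bp after thinning. Tet3 ran the other way, with 800 and 1000 bp in mESCs and 2400 bp in both PILEC libraries, and 800, 1600, 2400 and 2600 bp after thinning. The Dnmt3a stretch, in contrast to its level, was no narrower in PILECs at 1 RPM per window, at 2800 and 2600 bp against 2200 and 2400 bp, but at 2 RPM per window it was 2200, 1800, 1800 and 600 bp in wt mESCs, menin-null mESCs, wt PILECs and menin-null PILECs.

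Of the 71 annotated starts of the 10 genes, 21 groups lay at least 2 kb from the main start, and 17 of these were under 3 RPM in all 4 libraries. The other 4 were the Dnmt3a and Trim28 starts above, a start of Tet1 at 62342762 with 4.11, 2.84, 0.48 and 0.57 RPM, and a start of Dnmt3a at 3885449 with 3.70, 6.82, 1.44 and 0.96 RPM.

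In mESCs 1 of 10 genes, Tet3, was at least 2-fold higher in menin-null cells and 0 were 2-fold lower, and over the 15210 genes with at least 20 tags in the libraries compared these shares were 1.12% and 1.01%. The median ratio of the 10 was 0.20, beside 0.23 over all genes. In PILECs 0 of 10 passed 2-fold in either direction, beside 2.1% higher and 2.09% lower of 20267 genes, and the median was -0.19 beside -0.07. Intervals above 0 were found for 4 of 10 genes in mESCs, beside 25.8% of all genes. Intervals below 0 were found for 6 of 10 in PILECs (Dnmt3a, Dnmt3b, Tet1, Trim28, Zfp57 and Tet2), beside 23.7%. These shares compare unlike precision, since intervals narrow with more tags and most members were above the median level of all genes. Of the member intervals clear of 0, 3 in mESCs lay above the median of all genes and 4 in PILECs below it. The share of all genes that did so was not computed. Relative to GC the PILEC intervals of Dnmt3a and Dnmt3b stayed below 0. Relative to GC, Tet1 had -0.22 (-0.48 to 0.04) at the internal start counted here and -0.24 (-0.43 to -0.05) at its RefSeq start.

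Between the stages, 2 of 10 genes (Tet1 at its internal start and Tet3) were at least 2-fold higher and 3 (Dnmt3a, Dnmt3b and Dnmt3l) at least 2-fold lower in wt PILECs, beside 8.3% and 15.3% of 16574 genes. In menin-null cells the same 2 were higher and 5 were lower, with Uhrf1 and Trim28 added, beside 6.49% and 23.1% of 16801 genes. The medians of the 10 were -0.20 in wt and -0.98 in menin-null cells, where all genes had -0.03 and -0.33. Input tags within 50 kb of these genes were also lower for their depth in PILECs, by log2 ratios of -0.90 to -0.28 in wt. In menin-null cells they were lower by -0.96 to -0.13. Dividing by the input ratio also moved the medians of all genes, from -0.03 to 0.30 in wt and from -0.33 to -0.01 in menin-null cells. With each ratio divided by that of the input, 1 gene (Dnmt3l) in wt and 2 (Dnmt3a and Dnmt3l) in menin-null cells were 2-fold lower, and Tet1 and Tet3 were 2-fold higher in both. On that scale 16.7% of all genes were higher and 11.4% lower in wt, and 10.4% and 15.8% in menin-null cells. The stage comparisons share no library, but each shares libraries with both genotype comparisons.

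**Figure D4:**
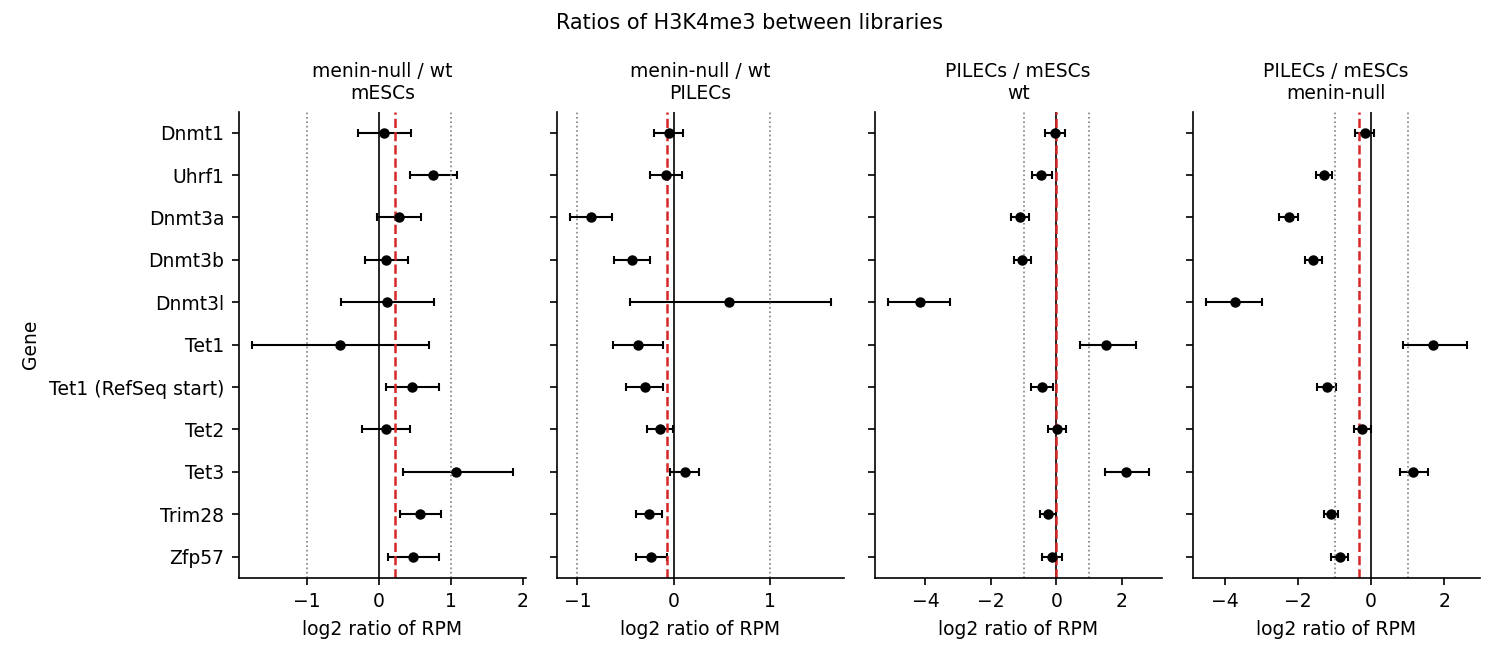
Log2 ratios of RPM (points) with 95% counting intervals (bars) for the 10 genes and the RefSeq start of Tet1 in the 4 comparisons, with 0 as a solid line, the median of all genes as a dashed red line and 2-fold as dotted lines; axes differ between panels. Dnmt3a lay at -0.86 in PILECs, far from the dashed line at -0.07, and Dnmt3l and Tet3 lay at opposite ends in the wt stage panel, at -4.17 and 2.12.

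The difference between the 2 genotype ratios, PILECs minus mESCs, had a median of -0.33 over 15130 genes. Set against that median, it was lower for Dnmt3a, at -0.81 (-1.18 to -0.45), for Uhrf1, at -0.50 (-0.87 to -0.14), for Trim28, at -0.50 (-0.81 to -0.19), and for Zfp57, at -0.38 (-0.75 to -0.01). For Dnmt3b it was -0.20 (-0.55 to 0.14), and for Dnmt1 0.20 (-0.18 to 0.59). Of the 15130 genes, 2.60% had a lower difference than Dnmt3a, 8.89% than Uhrf1, 9.04% than Trim28 and 14.4% than Zfp57. The share of all genes with an interval clear of the median was not computed. Among the 4, Dnmt3a alone was more than 1.5-fold lower with the menin-null genotype in PILECs, and the other 3 took most of their difference from higher levels in menin-null mESCs, the library with the larger share of tags near starts, whose part in these levels was not tested. With libraries scaled to tags near starts, the mESC genotype ratios were 0.52 for Uhrf1, 0.34 for Trim28 and 0.24 for Zfp57. With both ratios taken relative to GC, and again set against the median of all genes, the values were -0.48 for Dnmt3a, -0.46 for Uhrf1, -0.34 for Trim28 and -0.39 for Zfp57.

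The promoter sequences of the group were mixed. In windows of 2 kb, Dnmt3a (268 CpG), Trim28 (176), Tet2 (141), Dnmt3b (139) and Uhrf1 (123) were CpG-rich, and Tet3 (86), Dnmt1 (78), Zfp57 (62), Dnmt3l (47) and Tet1 at its internal start (36) were nearer to the median of 59 over all 26225 promoters. The RefSeq start of Tet1 had 87 CpG. In the 250 bases before the start, on both strands, the GC box GGGCGG was in 7 of 10 genes and 41.0% of all promoters. CCAAT was in 3 (Tet1 at its internal start, Tet3 and Uhrf1) and in 32.8% of all. Before the RefSeq start of Tet1, GGGCGG was found and CCAAT was not. The motifs CCGGAAG, TGACGTCA, TTTCCCGC, TTTGGCGC, ATGCAAAT and TATAAA were in none of the 10 windows, and in 8.98%, 2.01%, 1.13%, 0.427%, 1.48% and 11.2% of all promoters.

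Of 42 other genes of the pathway, in 4 lists of methyl-CpG readers, demethylation and base repair, heterochromatin and imprint partners, and cofactors, few passed 2-fold with genotype. In mESCs Gadd45b, a stress-response gene tied to demethylation, was the 1 of 38 tested that was higher, at 1.11 (0.64 to 1.61), and 0 were lower, beside 1.12% and 1.01% of all genes. In PILECs 0 of 42 were higher and 1 was lower, beside 2.1% and 2.09% of all genes, so both shares were near the background. The lower gene was Atf7ip, a partner of the H3K9 methyltransferase Setdb1. Atf7ip held 11.0 RPM (206 tags) in wt and 2.60 RPM (46 tags) in menin-null PILECs, a ratio of -2.08 (-2.57 to -1.61), and 7.40 and 5.40 RPM in the mESCs. Setdb1 itself was at 9.80 and 9.95 RPM in PILECs, with a ratio of 0.02. The ratios of the genes in these lists are given on the scale of all tags only, without their GC content or input ratios.

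Between the stages in wt cells 1 of 39 was 2-fold higher, the methyl-CpG reader Zbtb4 at 1.12 (0.67 to 1.60), beside 8.3% of all genes. The pluripotency regulator Prdm14 was 2-fold lower, at -2.13 (-3.17 to -1.02), as were 15.3% of all genes. The list median in wt cells was -0.12 beside -0.03 over all genes. In menin-null cells 0 of 41 were higher, beside 6.49% of all genes, and 9 were lower, a share near the 23.1% of all genes. The list median there was -0.50 beside -0.33 over all genes. The 5 with the largest ratios were Prdm14 at -3.50, the methyl-CpG reader Zbtb38 at -1.63, the chromatin remodeller Hells at -1.32, Ctcf at -1.18 and the uracil glycosylase Ung at -1.14. Uhrf2, the paralog of Uhrf1, had a genotype ratio of 0.42 (0.11 to 0.73) in mESCs, which overlaps that of Uhrf1, and the glycosylase Tdg, which acts after the Tet enzymes, lay between 34.7 and 48.1 RPM in all 4 libraries.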

How the data were processed

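H3K4me3 ChIP and input DNA of 4 kinds of cells were sequenced as 36-bp reads, 1 library each. The authors aligned them to mm9 with an aligner not given in the sources used here and deposited 1 line per tag with its position, mismatches and strand, so the values are unnormalized positions. A score from 4 to 119, deposited for every tag, was not used. Tags were moved 125 bp, to the middle of the 250-bp fragment, and counted within 1 kb of 75543 annotated starts of 26225 genes, and a gene was read at the start with the highest mean RPM of the 4 H3K4me3 libraries. Ratios were formed without added tags, with a count of 0 set to 3 tags. A gene was compared where both libraries together held at least 20 tags. RefSeq starts were placed by matching 300-base RefSeq promoters (GRCm38.p6), of which 19 of 19 matched mm9 once. Printed sequences were read from the mm9 genome. Python 3.11.15, numpy 2.4.6, pandas 2.3.3, scipy 1.17.1 and matplotlib 3.10.9 were used, and the ratios were tested on simulated counts. The genes, lists and rules were chosen with earlier results of these data known. The rule for naming was all 10 genes, their separate starts, and of the pathway lists the genes past 2-fold, at most 5 in each direction. Setdb1, Uhrf2, Tdg and the stretches inside genes were named after their values were seen. Alternatives changed duplicates, tag position, window, scaling, input, start, mismatches, depth, fold, minimum tags and added tags, and 2 more, RefSeq starts and GC, were added after seeing the data. The result of 1 gene of the pathway lists is not reported here.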

Additional observations from a re-analysis of the deposited data

Results flagged for a closer look

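The menin-null over wt ratio differed between PILECs and mESCs, against the median of all genes, by more than counting error at 4 genes and at the RefSeq start of Tet1. The share of all genes that differed by this rule was not computed. Of all genes, 2.60% had a lower value than Dnmt3a, 8.89% than Uhrf1, 9.04% than Trim28 and 14.4% than Zfp57. The log2 values, PILECs minus mESCs, were -0.81 for Dnmt3a, -0.50 for Uhrf1, -0.50 for Trim28, -0.38 for Zfp57 and -0.44 (-0.84 to -0.03) for the RefSeq start of Tet1. Each rests on 1 library per kind of cells, so the difference was not tested over replicates. At Dnmt3a the genotype ratios were of opposite sign, 0.29 in mESCs and -0.86 in PILECs, and the interval of the first included 0.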

How the results depend on the processing

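With 1 library per kind of cells no library could be left out. No paired analysis was possible because no group has a second replicate. Of 549 log2 ratios recomputed under the alternatives, 484 stayed within their counting interval. In all 47 changed sign, 39 of them from an interval that included 0. The other 8 were Tet1 with RefSeq starts added, at -0.44 for wt and -1.22 for menin-null PILECs over mESCs, where the main peak replaced the internal start, wt PILECs over mESCs for Trim28 within 500 bp (0.15) and divided by the input ratio (0.54) and for Uhrf1 divided by the input ratio (0.45), and menin-null PILECs over mESCs for Tet2 with scaling to tags near starts (0.12), centring on the median (0.09) and relative to GC (0.21). Divided by the input ratio, the median of all genes for wt PILECs over mESCs was 0.30. Counts of the 10 genes past 2-fold changed as follows, and the cause was not tested. For menin-null mESCs the 1 higher gene (Tet3) became 0 with tags at one position counted once, with scaling to tags near starts, with centring on the median of all genes or of genes nearest in GC, and 2 (Tet3 and Uhrf1) at 1.5-fold. Of all genes, between 0.44% and 0.98% were higher where the count became 0, and 11.8% at 1.5-fold. For menin-null PILECs the 0 lower genes became 1 (Dnmt3a) within 500 bp and at 1.5-fold, beside 2.62% and 7.68% of all genes. For wt PILECs over mESCs the 3 lower genes became 1 when divided by the input ratio (Dnmt3l), at the 5'-most start (Dnmt3b) and relative to GC (Dnmt3l), and 2 (Dnmt3b and Dnmt3l) within 2 kb, and the 2 higher genes became 1 (Tet3) with RefSeq starts. Of all genes, between 11.4% and 15.3% were lower in these settings, and 8.3% were higher with RefSeq starts. For menin-null PILECs over mESCs the 2 higher genes became 1 with tags at one position counted once and within 500 bp (Tet1), and within 2 kb, at the 5'-most start and with RefSeq starts (Tet3). Of all genes, between 5.70% and 9.97% were higher in these settings. The 5 lower genes in menin-null PILECs over mESCs became 3 (Dnmt3a, Dnmt3b and Dnmt3l) within 500 bp, with scaling to tags near starts and with both centrings, 2 (Dnmt3a and Dnmt3l) when divided by the input ratio, 4 within 2 kb and at the 5'-most start, where 7 of the 10 genes were tested, and 6 at 1.5-fold (with Zfp57) and with RefSeq starts (with Tet1). Of all genes, 37.2% were lower at 1.5-fold and between 15.1% and 27.0% in the other settings named. Scaling to tags near starts moved the median of all genes in that comparison from -0.33 to 0.03 and the shares past 2-fold from 6.49% higher and 23.1% lower to 11.2% and 15.7%. Of 88 widths 28 moved. Depth limits the mESC libraries most, where Tet1 at its internal start had 13 tags in each.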

Other observations

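Short stretches of H3K4me3 lay inside other members, at least 2 kb from any annotated or RefSeq start. In Tet2 the bin of 1 kb at chr3:133179643-133180642, 27.2 kb from the 5' end of the gene, held 6.17 RPM (15 tags) in wt mESCs and 7.11 RPM (25 tags) in menin-null mESCs, and 0.27 and 0.40 RPM in wt and menin-null PILECs. In Dnmt3a the bin at chr12:3871007-3872006, between the upstream and the internal start, held 4.52 and 5.40 RPM in the mESCs and 0.59 and 0.23 RPM in the PILECs. The log2 ratio of wt PILECs over wt mESCs was -4.53 (-6.35 to -3.00) in the first and -2.95 (-4.30 to -1.60) in the second. Others were found at 5.12 RPM (18 tags) in Tet1 at chr10:62346318-62347317 and 5.97 RPM (21 tags) in Tet2 at chr3:133196643-133197642 in menin-null mESCs, against 1.64 and 2.88 RPM in wt mESCs. All were found by searching for bins of at least 5 RPM, so their size is a description.

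Markers of germ cells also summed higher in the mESC libraries, with 4 genes at 32.5 RPM in wt and 22.7 RPM in menin-null mESCs. In the PILECs they summed to 2.93 and 2.66 RPM. The summed input of the 4 genes was 9.89 and 5.34 RPM in the mESCs and 2.73 and 2.59 RPM in the PILECs. Of the 4, 1 in wt and 0 in menin-null mESCs lay above the median of all genes. The feeder-cell list of 6 fibroblast genes summed to 54.7 and 67.1 RPM in the mESCs and 74.0 and 61.0 RPM in the PILECs. The 4 neural genes placed summed to 61.7, 84.4, 111.8 and 112.9 RPM in the same order.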
